A study of Drosophila melanogaster with 3 samples.

Results

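The regions described here are 1075 of the 6580 peaks (16.3%) in the authors' optimal list for the transcription factor Grain in Drosophila melanogaster embryos. They were chosen by position and sequence alone. Each has its summit, the base of highest signal, over 1000 bp from the 5' end of every annotated transcript, inside a gene and in no annotated exon. None has the GATA hexamer, which is GATA with A or T before it and A or G after it, on either strand of the window that reaches 50 bases to each side of the summit. Another 1172 distal intronic peaks carry the hexamer there, so that 47.8% of distal intronic summits lack it. The name holds for the summit and not for the whole peak, because 628 of the 1075 regions (58.4%) hold a hexamer somewhere between the start and the end of their peak.

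Embryos aged 0 to 24 h, with the sexes mixed, came from the transgenic strain grn-GFP, which makes Grain joined at its C-terminus to GFP. Chromatin was sonicated to 200 to 800 bp and precipitated with an antibody against GFP. There was 1 group of 3 biological replicates, all of this strain, and no second genotype or treatment. The promoter that drives the transgene, and whether the line keeps its own grn, are not stated by the labels, and whole embryos of this age range mix all cell types and stages. The files are ranked peak lists without read counts, so the depth behind a peak is unknown.

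Grain belongs to the GATA family of zinc-finger factors, named for the bases at the heart of the hexamer that they contact through their C-terminal finger. GATA factors also contact shorter or variant forms of that sequence, and they work with cofactors of the Friend-of-GATA family, of which ush (u-shaped) is the fly member. Distal introns hold many of the enhancers of developmental genes, and in the fly embryo Grain is known for its roles in motor axon guidance and in shaping the posterior spiracles.

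On the arms whose sequence is shown here, the strongest such region with no hexamer within 250 bp of its summit lay in ush, and the strongest with one 51 to 100 bp away lay in the same gene. Both are shown to set the 2 situations side by side. All sequences are the plus strand of dm6 from the RefSeq copy of genome release 6, read 5' to 3'. The window chr2L:481052-481152 is centred on the summit, and chr2L:521044-521264 reaches 110 bp to each side of its summit with the hexamer copies in capitals, written as their reverse complement.
ush, no hexamer within 250 bp: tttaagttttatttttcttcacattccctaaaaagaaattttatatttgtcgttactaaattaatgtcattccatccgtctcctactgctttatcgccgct
ush, hexamers beside the window: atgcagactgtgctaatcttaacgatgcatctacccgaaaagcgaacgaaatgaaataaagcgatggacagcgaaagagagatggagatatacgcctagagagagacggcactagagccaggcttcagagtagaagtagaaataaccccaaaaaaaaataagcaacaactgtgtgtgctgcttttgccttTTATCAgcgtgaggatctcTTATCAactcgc
The first window has a GATA core of another kind near its right end, read on the minus strand. In the second window the hexamer copies started 80 and 99 bp to the right of the summit.

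Most of these summits held the 4 letters GATA in another frame. The 6 windows that follow are those of strong regions with such a core, with GATA, or TATC where the core is on the minus strand, in capitals. They are the strongest on the arms shown, 1 per gene and ush left out, and were chosen after their values were seen.
GlcAT-S, chr2L:9620144-9620244: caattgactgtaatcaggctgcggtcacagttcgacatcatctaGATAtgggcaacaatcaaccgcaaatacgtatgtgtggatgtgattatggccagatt
plh, chr3R:4992227-4992327: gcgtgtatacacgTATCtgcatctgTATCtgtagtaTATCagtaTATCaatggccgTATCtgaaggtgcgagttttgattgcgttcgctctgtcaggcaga
SCaMC, chr3L:12407075-12407175: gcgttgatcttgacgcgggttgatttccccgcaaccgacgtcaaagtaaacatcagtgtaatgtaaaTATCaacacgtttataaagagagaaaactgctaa
tna, chr3L:10856746-10856846: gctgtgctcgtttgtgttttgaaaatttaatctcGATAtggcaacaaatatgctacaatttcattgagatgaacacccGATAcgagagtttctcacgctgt
CG43367, chr3L:4219892-4219992: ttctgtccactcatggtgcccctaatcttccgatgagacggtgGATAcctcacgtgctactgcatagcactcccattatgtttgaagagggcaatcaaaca
FASN1, chr2L:3058013-3058113: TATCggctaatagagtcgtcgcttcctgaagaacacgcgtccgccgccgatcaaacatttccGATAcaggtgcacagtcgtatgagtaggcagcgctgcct
The plh window held 5 cores on the minus strand, 3 of them AGATAC and 2 TGATAT. Of the cores shown, those nearest to the summit began 3 bases from it in GlcAT-S and plh, 4 bases in CG43367, 12 bases in FASN1, 13 bases in tna and 17 bases in SCaMC.

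A GATA core other than the hexamer was present at 648 of the 1075 summits (60.3%). Among all 3538 optimal summits without the hexamer the share was 58.3%, close to that of the intronic summits. It was 61.2% at distal intergenic summits without the hexamer and 55.6% at promoter summits without it. Of 395441 tiles of the window's width laid end to end over distal intronic sequence and free of the hexamer, 33.0% held such a core. For a local background, the window centred 500 bp to the right of each summit was used where it also lacked the hexamer, which left 872 pairs. The share was 60.8% at their summits and 32.5% in the windows beside them.

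The shares were similar at the summits that the replicates themselves placed. Each region was matched to the strongest overlapping peak of a replicate, and that peak's own summit was read. These summits lay a median of 14, 30 and 16 bp from the optimal ones in replicates 1, 2 and 3, so most windows overlap. The optimal list also rests on the same reads. The replicate shares are therefore not independent of the shares at the optimal summits. Pairs in which the replicate's own summit or the window 500 bp away held the hexamer were left out, which kept 767, 707 and 727 regions in replicates 1, 2 and 3. The other core was present at 61.8, 59.5 and 60.2% of these summits, against 32.9, 33.2 and 31.5% of the windows beside them. The mean was 60.5 ± 1.15% at summits and 32.5 ± 0.914% beside them (SD, n = 3), a difference of 28.0 ± 1.47 percentage points that had the same sign in 3 of 3 replicates. The 2 ranges did not overlap, with p = 0.25 in the exact two-sided sign-flip permutation test over replicates, the smallest p that 3 replicates allow. No comparison over the replicates in this design can therefore pass 0.05.

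The core types differed in their excess at summits. AGATAC was at 16.1% of summits and 5.28% of the paired windows 500 bp away, a ratio of 3.04, and CGATAA was at 17.8% and 5.62%, a ratio of 3.16. At the replicates' own summits AGATAC averaged 17.3 ± 1.96% at summits and 5.09 ± 0.837% beside them, and CGATAA 17.4 ± 1.75% and 5.49 ± 0.712% (SD, n = 3). The rarer CGATAG (6.31% at summits, 1.72% beside) and CGATAC (4.82% at summits, 1.26% beside) had the highest ratios, 3.67 and 3.82. AGATAT was at 12.2% of summits against 6.54% of the windows beside them. Of the 12 types, 10 were more frequent at summits in 3 of 3 replicates. GGATAG went the other way, at 1.49% of summits and 2.41% of the windows beside them, and was lower at summits in 3 of 3 replicates. GGATAT was at 3.56% of summits and 3.78% of the windows beside them, and its direction differed between replicates.

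Against the other hexamer-free classes, AGATAC was found at 15.4% of all 1075 summits, close to the 14.7% of distal intergenic ones, against 9.02% of promoter summits. CGATAG ran the other way, at 6.23% of the distal intronic summits against 10.03% of promoter summits. The palindrome of the promoter factor DREF, which contains CGATA, was at 0.465% of the distal intronic summits and 3.53% of hexamer-free promoter summits. These differences between classes are over peaks and were not tested.

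The cores stood close to the summit. Within 25 bp of it there were 12.7 other cores per kb in the hexamer-free regions, against 9.44 in distal intronic regions that carry the hexamer and 4.57 in the tiles. From 25 to 50 bp the densities were 9.77, 8.48 and 4.51 per kb. From 475 to 500 bp the density was 4.56 per kb, next to that of the tiles.

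**Figure D1:**
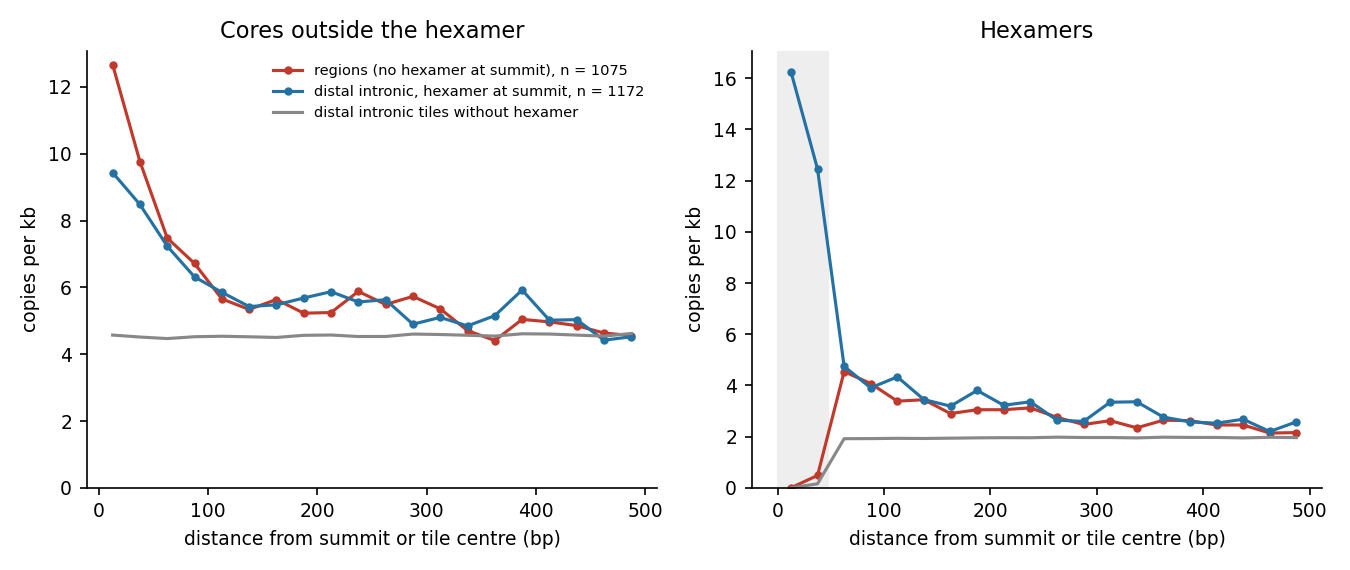
Density of GATA cores outside the hexamer (left) and of hexamers (right), in copies per kb, against distance from the summit or tile centre in bins of 25 bp, for the 1075 regions without the hexamer, the 1172 distal intronic regions with it and hexamer-free distal intronic tiles. Grey shading marks the window that the choice of regions empties of hexamers, so the curve there is set by that choice. Beyond it the 2 sets of regions stay above the tiles at 50 to 75 bp, where hexamer densities are 4.54, 4.74 and 1.92 per kb.

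Hexamers were common just outside the window. One lay 51 to 250 bp from the summit in 757 of the 1075 regions (70.4%, Wilson 95% interval 67.6 to 73.1%). The share was 66.9% of all hexamer-free optimal peaks and 50.9% of the tiles. In the carriers of the hexamer a further copy lay at that distance in 74.1%, against 59.1% of distal intronic tiles that hold the hexamer. In hexamer-free intergenic and promoter regions the shares were 62.6% and 64.2%. In the band from 51 to 100 bp the share was 34.6% against 16.9% of the tiles. The hexamer density in the band from 50 to 75 bp was 4.54 per kb in hexamer-free regions, 4.74 in carriers and 1.92 in tiles. From 475 to 500 bp it was 2.16, 2.58 and 1.96 per kb. The median distance from the summit to the nearest hexamer was 145 bp. In 427 regions (39.7%) at least 2 copies lay within 250 bp, in 318 (29.6%) none did, and in 23 none lay within 1000 bp. The peaks behind these counts were wide, with a median of 460 bp.

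A replicate's summit could land on one of these nearby hexamers. At the replicates' own summits the hexamer was present in 11.9, 18.6 and 16.3% of the regions in replicates 1, 2 and 3, against 19.3, 18.7 and 19.6% of the windows 500 bp away. The mean was 15.6 ± 3.42% at summits and 19.2 ± 0.427% beside them (SD, n = 3). In distal intronic regions with the hexamer in the optimal list the mean was 84.4 ± 3.86%. The rule that set the 2 classes looks at the optimal summit, and a replicate's window overlaps that window when the shift is small. Both shares are therefore shaped by the rule and do not measure depletion or enrichment at replicate summits. At least 1 replicate placed its summit on a hexamer in 319 regions (29.7%), and all 3 did so in 43 (4.0%). The summits shifted by a median of 14, 30 and 16 bp between the optimal list and replicates 1, 2 and 3. A shift of over 50 bp in some replicate was found in 542 regions (50.4%), against 482 of the carriers (41.1%).

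The 2 features together divided the regions. This split was not counted in the other hexamer-free classes, so it is set against the tiles only. Taken one at a time, the core was at 60.3% of the regions and 58.3% of all hexamer-free optimal peaks. The nearby hexamer was at 70.4% and 66.9%. The split is thus not shown to be particular to these regions. In 447 (41.6%) an other core was at the summit and a hexamer lay 51 to 250 bp away, against 17.8% of the tiles. The core alone was found in 18.7% of regions against 15.2% of tiles, and the nearby hexamer alone in 310 (28.8%) against 33.1% of tiles. Neither was found in 117 regions (10.9%, Wilson 95% interval 9.16 to 12.9%), against 33.9% of tiles. The median optimal signal was 180 in regions with both, 158 with the core alone, 154 with the nearby hexamer alone and 147 with neither. The authors' signal is their own value per peak and is used here to rank and describe peaks within 1 list.

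Regions with a core ranked higher than those without one in every replicate. Their median ranks in replicates 1, 2 and 3 were 3160, 3358 and 2936 of 30000, against 3745, 3969 and 3453 for regions with no core. The means were 3151 ± 211 with a core and 3722 ± 259 without (SD, n = 3), a difference of -571 ± 48.5 ranks, lower in 3 of 3 replicates (exact two-sided sign-flip permutation p = 0.25). Rank 1 is the strongest peak, so a lower rank means a stronger one. The share among the 6580 strongest peaks of a replicate was 85.5 ± 5.95% with a core and 83.8 ± 6.67% without, and its difference was positive in 2 of 3 replicates (exact two-sided sign-flip permutation p = 0.50).

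Along the signal of the 1075 regions, the share with a core was 69.8% in the strongest quintile, then 60.0, 66.5, 53.5 and 51.6%. The share with a hexamer 51 to 250 bp away was 79.5% in the strongest quintile, then 73.5, 67.0, 67.0 and 65.1%. Neighbouring quintiles overlap in their Wilson intervals, and the first and the last do not in either measure.

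**Figure D2:**
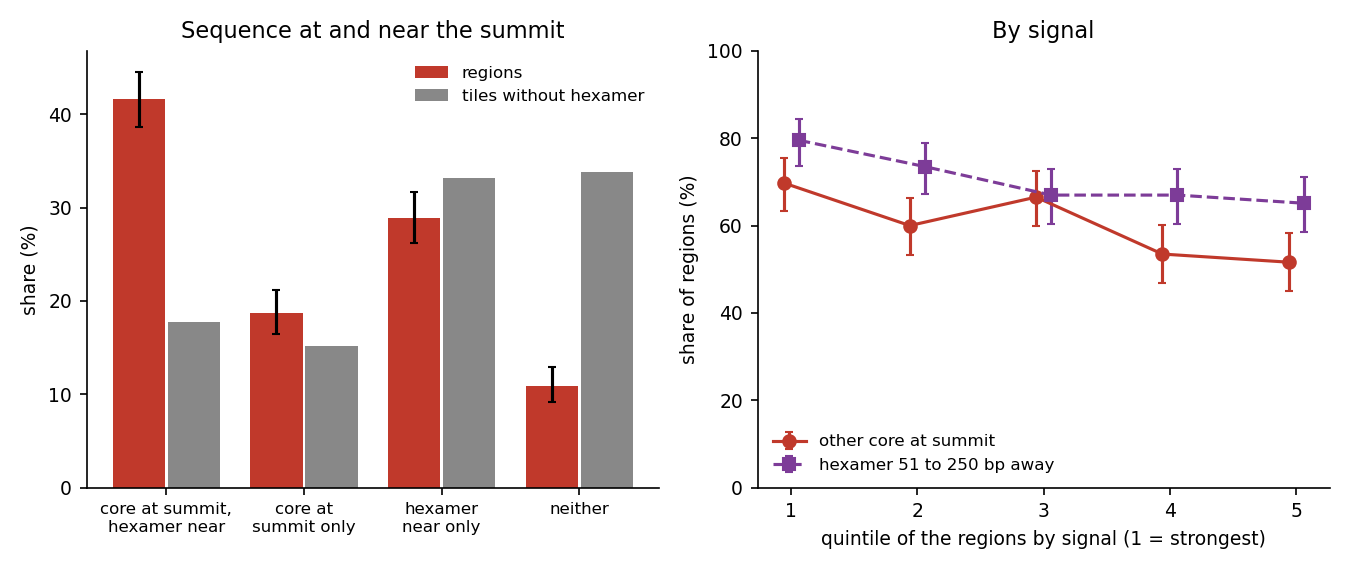
Left, the share of the 1075 regions (red) and of hexamer-free distal intronic tiles (grey) with another GATA core at the summit, a hexamer 51 to 250 bp away, both or neither. Right, the share of regions with a core and with a nearby hexamer in each quintile by optimal signal, with 1 the strongest. Bars on the red columns and points are Wilson 95% intervals, which cover counting error only. Both features together mark 41.6% of regions and 17.8% of tiles. Other hexamer-free peaks were not split in this way.

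The strongest region with neither feature lay in spin (chr2R:16135534-16135990), which codes for a lysosomal transporter, at rank 111 of the optimal list and at ranks 105, 94 and 146 in replicates 1, 2 and 3. The next was in CG32772 (optimal rank 245) with ranks 338, 197 and 245. Star (S), a gene needed for export of EGF receptor ligands, followed at optimal rank 698 with ranks 567, 1177 and 746. Lim1, a LIM homeobox gene, had optimal rank 717 and ranks 644, 1280 and 748, and CG33158 had optimal rank 801 and ranks 896, 1372 and 728. All 5 were thus among the 6580 strongest peaks of each replicate with no GATA core in the summit window, and in the last 3 replicate 2 gave the weakest rank.

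Another 22 motifs were counted beside the 2 groups of GATA cores. Of these, 2 were more frequent at summits in 3 of 3 replicates, 8 were less frequent in 3 of 3 and 12 were mixed, with Benjamini-Hochberg adjusted exact permutation p of 0.50 or more. The element of Mad, a DNA-binding factor of the Dpp pathway, was at 11.6% of summits and 9.52% of the windows beside them. At the replicates' own summits its mean excess was 1.66 percentage points, against 0.369 when the window 500 bp to the left was used. It reversed to -0.548 there when 100 bp were searched to each side, in the 703 regions with no hexamer in that wider window. The Su(H) element, bound by the Notch pathway's DNA-binding factor, was at 5.96% and 8.37%. Its mean deficit of -3.09 points at the replicates' own summits was -0.294 against the window on the left (exact p = 1). The element of GAGA factor (GAGAG on either strand), a protein tied to open promoters and enhancers, was at 152 summits (14.1%) against 15.0% of all optimal summits. At the replicates' own summits it averaged 14.2 ± 1.46%, against 12.8 ± 0.81% beside them, and was higher in 2 of 3 replicates. The GAGA excess of 1.45 percentage points was 4.79 above the median signal. With 100 bp searched to each side it was 5.38, in the 703 regions with no hexamer in that wider window. These 2 alternatives were each positive in 3 of 3 replicates (exact two-sided sign-flip permutation p = 0.25). By contrast the groups of other GATA cores averaged 34.4 ± 2.16% against 17.7 ± 0.45% (GATA with A or T before it and C or T after it) and 38.7 ± 0.97% against 19.3 ± 0.50% (GATA with C or G before it), with Benjamini-Hochberg adjusted exact permutation p = 0.50 over the 24 motifs for each. Regions with the GAGA element were among the 6580 strongest peaks of all 3 replicates in 75.0% of cases, against 63.4% of regions without it.

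The strongest region of all, in ush, held copies of GAGAG at its summit. They are in capitals in its window chr2L:521104-521204 and overlap one another in the second run.
ush, GAGAG in capitals: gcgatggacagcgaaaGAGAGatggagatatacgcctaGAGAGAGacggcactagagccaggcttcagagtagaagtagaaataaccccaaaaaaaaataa
A single core of another kind, AGATAT, lay between the runs.

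The regions were found in the replicates nearly as often as the carriers of the hexamer. For each replicate the 6580 strongest peaks were taken, as many as the optimal list holds, and an overlap of at least 1 bp counted as found. In replicates 1, 2 and 3 the shares were 87.2, 77.9 and 89.6% without the hexamer, against 90.4, 82.0 and 88.4% with it. The means were 84.9 ± 6.19% and 86.9 ± 4.37% (SD, n = 3 each), and the difference of -2.05 ± 2.84 percentage points changed sign between replicates (exact two-sided sign-flip permutation p = 0.50). It was -1.01 points without replicate 2 and -3.67 without replicate 3. Among 0.5 times as many strongest peaks it was -5.47 points, with summits within 100 bp -4.09 and beyond 2000 bp from a 5' end -3.64, each with 1 sign in 3 of 3 replicates (exact p = 0.25). All 3 replicates held 699 of the 1075 regions (65.0%, Wilson 95% interval 62.1 to 67.8%) and 815 of the 1172 carriers (69.5%, 66.8 to 72.1%), with 67.8% of all optimal peaks. Another 270 hexamer-free regions were found in 2 replicates, 100 in 1 and 6 in none. Replicate 2 gave the lowest share in both classes.

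By rank the hexamer-free regions were weaker than the carriers over the whole optimal list. Their median ranks were 3405, 3637 and 3192 in replicates 1, 2 and 3, against 2976, 2993 and 2881 for the carriers. The means were 3411 ± 223 and 2950 ± 60.4 (SD, n = 3 each). The difference was 461 ± 169 ranks, higher in 3 of 3 replicates and with no overlap between the classes (exact two-sided sign-flip permutation p = 0.25). Among optimal peaks above the median signal the difference was 17.3 ranks and its sign differed between replicates (exact p = 1). Picking peaks by optimal signal narrows the ranks of both classes, because signal and ranks rest on the same reads. The smaller difference therefore does not show that the classes are equal among strong peaks. Set against hexamer-free promoter regions the differences were 308, 688 and 80 ranks, also higher in 3 of 3 (p = 0.25, exact). Against hexamer-free intergenic regions they were -311, -371 and 102.5 ranks, with no single direction (p = 0.50, exact). In the optimal list the median signal was 165 (range 110 to 1515) without the hexamer and 184 with it, and 176 over all peaks.

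**Figure D3:**
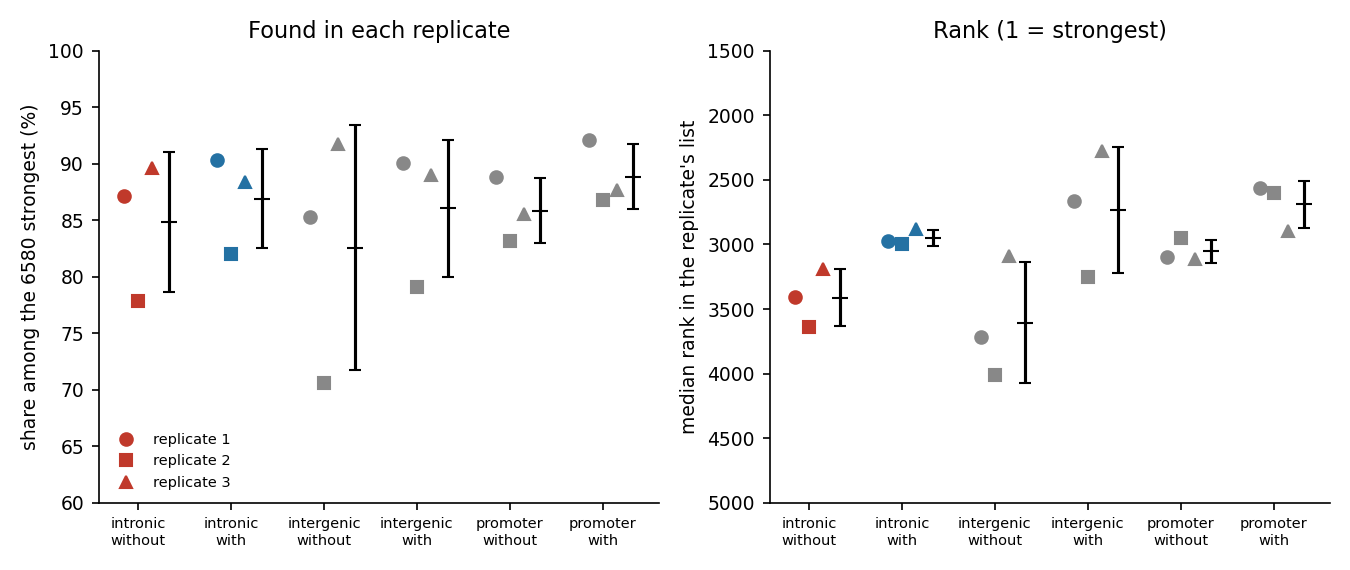
Share of regions among the 6580 strongest peaks (left, vertical axis from 60 to 100%) and median rank (right, axis turned so that stronger is up) in replicates 1, 2 and 3, for distal intronic, distal intergenic and promoter regions without and with the hexamer. Black bars are the mean ± SD of the 3 replicates. The shares of the intronic classes overlap, and their median ranks, 3192 to 3637 without and 2881 to 2993 with the hexamer, do not.

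Along the optimal list, the share of distal intronic summits without the hexamer was 39.9% in the strongest quintile, then 47.0, 46.7, 50.5 and 54.2%. The replicates' own full lists carried this further down. Among distal intronic summits the share was 49.8 ± 0.443% at ranks 1 to 6580, 64.0 ± 1.51% at ranks 6581 to 13160 and 72.0 ± 2.66% at ranks 13161 to 19740 (SD, n = 3). No 2 bands overlapped in their replicates. Over all 30000 peaks it was 67.9 ± 1.52%, and it was 82.5% of the distal intronic tiles.

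**Figure D4:**
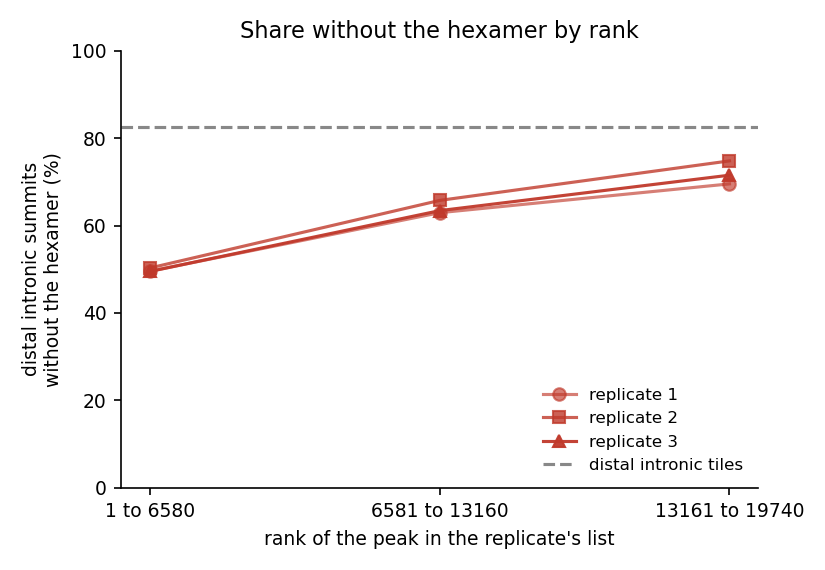
Share of distal intronic summits without the hexamer in 3 successive bands of 6580 ranks in each replicate's own list. Points joined by a line are 1 replicate, and the dashed line is the share of distal intronic tiles, 82.5%. The share is higher in each weaker band in all 3 replicates and stays below the tiles.

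Some of these summits stood about 200 bp from another. An optimal summit lay within 250 bp of 200 of the 1075 (18.6%), against 181 carriers (15.4%) and 17.7% of all optimal summits. Of these, 173 (16.1%) had a neighbour 190 to 215 bp away, against 13.8% of carriers, and no neighbour was closer than 199 bp, over all optimal summits too. Whether a setting of the peak caller fixed this least spacing was not tested. The hexamer-free summit was the weaker of such a pair in 98 of the 173 cases. The carrier was the weaker in 71 of 162, and over all optimal summits the count was 507 of 1014. In 224 regions (20.8%, against 17.4% of carriers) the matched replicate peak was also the match of another optimal peak, so that its rank there can belong to the stronger summit. The third ush region among the 25 strongest, with a signal of 609, stood at ranks 18, 39 and 14 in replicates 1, 2 and 3, ahead of its place in the optimal list. With summits that had a stronger one within 250 bp left out, which kept 962 regions, the share with a nearby hexamer was 68.9% and that found in all replicates 62.0%. With the same summits left out of both intronic classes, the mean difference in median rank from the carriers was 579 ranks, against 461 with all. The difference in share found was -2.66 percentage points, against -2.05. The excess of other cores at the replicates' own summits was 27.7 points, against 28.0. Of distal intronic summits 46.8% then lacked the hexamer, against 47.8%. The place in genes was not examined in this way.

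In 22 regions the same peak interval also held a summit with the hexamer. The strongest on the arms shown was in CG43367 (chr3L:4219589-4220262). Its first summit, shown above, had no hexamer and a signal of 982 at optimal rank 37. The second, 199 bp away, carried one and stood at rank 2676, and its window chr3L:4220091-4220191 is shown with the hexamer, as its reverse complement, in capitals.
CG43367, second summit: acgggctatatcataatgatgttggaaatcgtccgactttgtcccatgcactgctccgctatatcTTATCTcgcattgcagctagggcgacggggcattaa
The summit with the stronger signal was here the one without the hexamer. The pair was picked for the strength of its hexamer-free summit, and that choice favours this order.

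Sequence makeup differed slightly from the carriers. The median GC content of the window was 43.6% without and 42.6% with the hexamer, and 42.6% over all optimal peaks. In the distal intronic tiles it was 40.6% without and 36.6% with the hexamer. The rule sorts on this same window and the hexamer is rich in A and T, so the GC difference is shaped by the rule. Windows masked as repeats over most of their length numbered 48 (4.47%) against 19 (1.62%). By arm there were 197 regions on 2L, 200 on 2R, 233 on 3L, 248 on 3R, 196 on X and 1 on chromosome 4. Over the 48.4 Mb of distal intronic sequence this came to 22.2 regions per Mb, against 24.2 carriers.

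Their place in genes was close to that of the carriers. In 718 regions (66.8%, Wilson 95% interval 63.9 to 69.5%) the summit lay in a first intron, against 67.4% of carriers. The median distance to the nearest 5' end was 3565 bp without the hexamer and 3042 bp with it. From 1001 to 2000 bp lay 25.4% against 32.1%, and beyond 10000 bp 15.3% against 11.2%. The median intron was 14500 bp long for hexamer-free regions and 12236 bp for carriers. At the edge of the distance rule, summits in verm and Sugb stood 1001 and 1006 bp from a 5' end and were kept, and summits in Hnf4 and CG1136, at 999 and 997 bp, were not. At the edge of the window, the nearest hexamer was 51 bp away in regions of sog and ush and 50 bp away in carriers of cpo and CG1628. In all, 110 regions had their nearest hexamer at 51 to 60 bp and 131 carriers at 41 to 50 bp.

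The 1075 regions lay in 616 genes when each was given 1 host. Of these genes 389 held 1 region, 118 held 2, 61 held 3 and 48 (7.79%) held 4 or more. Carriers lay in 336 of the same genes, 54.5% of the genes with a hexamer-free region and 47.3% of those with a carrier. A gene with a carrier hosted 713 of the regions (66.3%), and 280 genes held hexamer-free regions and no carrier. For comparison, 10.8% of the 6852 protein-coding genes with distal intronic sequence hosted a carrier and 9.38% a hexamer-free region. The share with a hexamer-free region rose with the length of that sequence, as given below. Whether the sharing of genes exceeds what their length gives was not tested.

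The gene with the most was ush, the Friend-of-GATA cofactor, with 12 hexamer-free regions and 13 carriers over an intronic stretch where the hexamer-free summits spanned 53.6 kb. Of the 12, 9 had another core, 9 had a nearby hexamer and none lacked both. Second was tna (tonalli), which acts together with genes of the Brahma chromatin remodelling complex. It held 10 hexamer-free regions and 1 carrier, and 9 of the 10 had another core. The Dpp pathway zinc-finger gene shn (schnurri) held 9 regions and 7 carriers. The corepressor gene sbb (scribbler) held 9 and 1, and the FGF ligand gene ths (thisbe) held 8 and 2. The nuclear receptor gene Eip75B held 8 regions and 3 carriers. The tagged gene itself, grn, held 8 and 7, of which the strongest hexamer-free one stood at optimal rank 1110, and jing, a zinc-finger gene, held 8 and 10. Hexamer-free regions thus outnumbered carriers by far in tna and sbb, while ush (12 and 13) and jing (8 and 10) held slightly more carriers. The 8 genes were picked for holding the most hexamer-free regions, and that choice favours an excess of them over carriers. In jing 3 of the 8 had neither a core nor a nearby hexamer.

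The 25 strongest regions lay in 23 genes, with signals from 607 to 1515. All 25 were among the 6580 strongest peaks of each replicate, as were 99.5% of the strongest quintile of the regions. The optimal signal that picked them rests on the same reads as the replicate ranks. Of the 25, 19 lay in a first intron, 19 had a hexamer 51 to 250 bp away and 21 had another core at the summit. A replicate put its own summit on a hexamer in 5 of the 25. The first was the ush region at chr2L:520387-521567, ranked 6, 8 and 4 in replicates 1, 2 and 3. The second ush region, at chr2L:480861-481380, was ranked 12, 9 and 9. HmgZ, where the intron also lies within HmgD and both genes code for HMG-box chromatin proteins, was ranked 14, 13 and 13 (chr2R:21705802-21706361). These 3 kept their place in all replicates.

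The next regions lay in genes of varied roles. cno (Canoe), an adherens junction protein, had optimal rank 25 with ranks 17, 194 and 18. GlcAT-S, a glucuronyltransferase, was at 26 (19, 35 and 40), plh at 32 (38, 97 and 19) and SCaMC, a mitochondrial carrier, at 33 (37, 18 and 49). The region of FASN1, a fatty acid synthase, was at 60 (45, 59 and 91), that of Oda, the antizyme of ornithine decarboxylase, at 63 (50, 68 and 67), and that of Mct1, a monocarboxylate transporter, at 149 (124, 224 and 198). In cno, plh and Lrch (optimal rank 54, ranks 43, 251 and 44) replicate 2 stood apart on the weak side, and it did so again in PAN3, part of a poly(A) nuclease (optimal rank 182, ranks 150, 756 and 123).

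Of the others, tna was at optimal rank 35 (ranks 34, 38 and 39), CG43367 at 37 (56, 58 and 24) and shn at 43 (54, 36 and 42). sbb was at 65 (63, 95 and 60), and cwo (clockwork orange), a bHLH repressor of the clock, at 70 (59, 69 and 106). tkv (thickveins), a type I BMP receptor, was at 76 (98, 141 and 54) and HHEX, a homeobox gene, at 99 (139, 92 and 72). raw and puc (puckered), both antagonists of JNK signalling in dorsal closure, were at 116 (91, 64 and 242) and 164 (174, 376 and 125). ths was at 132 (118, 171 and 174), and sima, the fly HIF-1 alpha, at 202 (177 to 309). All of these stayed within the 400 strongest peaks of each replicate.

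**Figure D5:**
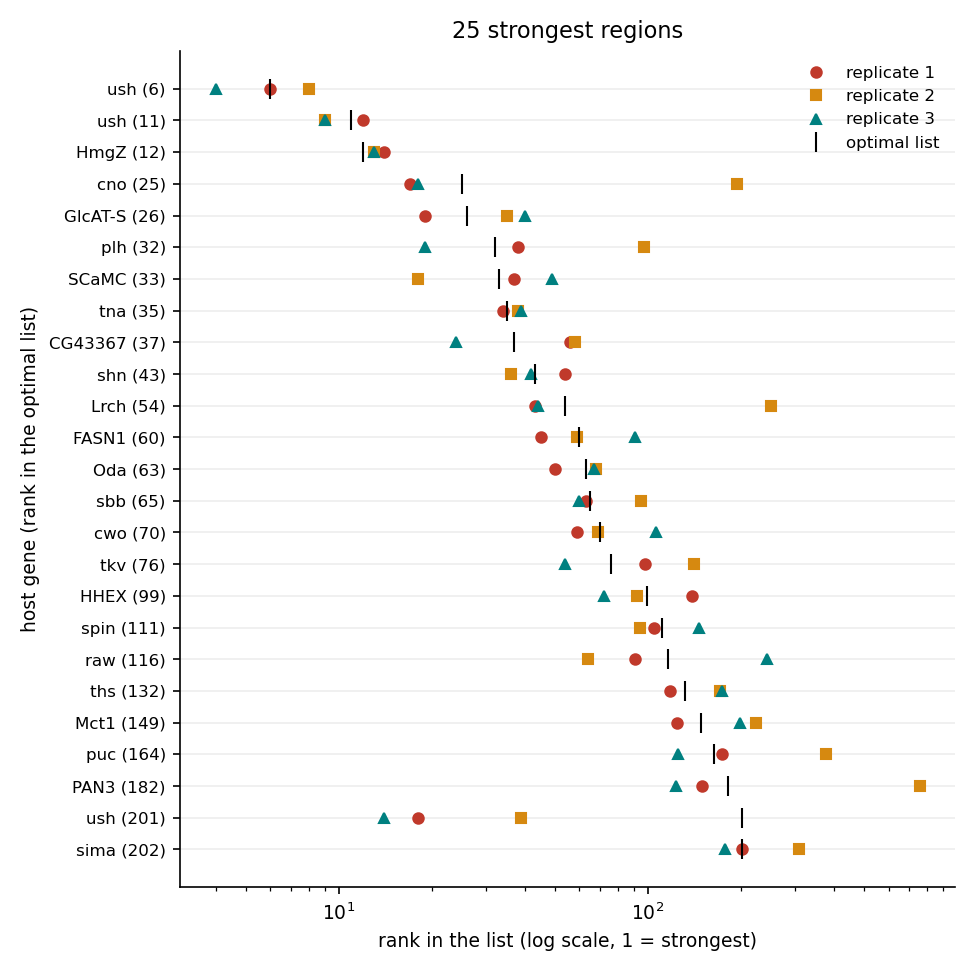
Rank of the 25 strongest hexamer-free distal intronic regions in the lists of replicates 1, 2 and 3, on a log axis where 1 is the strongest, with the rank in the optimal list as a black tick and in brackets after the host gene. Replicate 2 lies to the right of the others in cno, Lrch and PAN3, and the third ush region lies left of its tick in all 3 replicates.

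The gene lists were counted by host gene, and a region that lies in more than 1 gene counted for each, which gives 661 host genes in all. Of 6852 protein-coding genes with distal intronic sequence, 9.38% hosted at least 1 of the regions, and the share depended on how much such sequence a gene has. It was 2.70% up to 5 kb, 24.1% from 5 to 20 kb, 37.3% from 20 to 50 kb and 45.0% above 50 kb. The lists below mostly hold long genes, and their counts are to be read against those shares.

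Among GATA factors and their cofactor, 3 of 6 genes hosted a region. ush and grn are described above, and GATAe, the endoderm factor, held 1 weak region (optimal rank 6485). pnr and srp, the GATA factors of dorsal cells and of blood, held none, with 9.46 and 8.22 kb of distal intronic sequence. Of the posterior spiracle genes, 10 of 22 were hosts. The strongest were hh, the Hedgehog ligand, with 2 regions (best ranks 1170, 654 and 1297 in replicates 1, 2 and 3), trh, the tracheal bHLH-PAS factor, with 3 regions (3864, 2425 and 1408), Abd-B, the most posterior Hox gene (3378, 3366 and 1681), and Stat92E, the STAT factor, with 3 (3433, 2292 and 2013). salm, a zinc-finger gene, and ems, a homeobox gene, held none.

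In the Dpp pathway 6 of 13 genes hosted 27 regions, against 11 carriers. After shn and tkv came sog, which codes for an inhibitor of Dpp, with 4 regions (best ranks 809, 1019 and 871) and dally, a heparan sulfate proteoglycan, with 4 (best ranks 1548, 2735 and 1928). The receptor genes sax and put held none, and have 0.329 and 2.16 kb of distal intronic sequence. In the Wingless pathway 8 of 17 genes were hosts, led by the receptor gene fz2 with 6. Its best region, at optimal rank 339, matched peaks at ranks 13, 25 and 8 that it shares with a stronger summit. Notum, which codes for an enzyme that inactivates Wnt ligands, held 3 (best ranks 1337, 2942 and 1182), and arr, the co-receptor, held 2 (best ranks 1519, 2966 and 1526). Wnt2 and Wnt6 held none.

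The Notch pathway had 7 hosts of 14 genes. mam (mastermind), the coactivator, led with 3 regions and best ranks of 218, 287 and 220, and the receptor gene N held 3 (best ranks 1966, 2738 and 1222). The EGF receptor pathway had 7 of 13, with the ETS repressor gene aop (best ranks 1195, 882 and 2004), the inhibitor gene aos (1895, 1371 and 1375) and the ETS activator gene pnt (1729, 1724 and 2871), while the ligand genes spi and Krn held none. The tracheal list had 5 of 10 hosts and the Hedgehog list 1 of 8, hh itself. Their medians of distal intronic sequence per gene were 17.9 and 1.75 kb. ptc, the Hedgehog receptor gene, held 2 carriers and no hexamer-free region.

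Of the ecdysone response and nuclear receptor genes, 9 of 13 hosted 27 regions. ftz-f1 held 6 and Eip75B 8, with best optimal ranks of 444 and 548, and EcR, the ecdysone receptor gene, held 4 (best optimal rank 1092). Eip74EF and Eip93F held none, the second with 50.3 kb of distal intronic sequence. Hox genes and cofactors had 4 of 11 hosts, with hth, the Hox cofactor, at 7 regions and 7 carriers. The muscle list had 6 of 16, with a region at optimal rank 300 that lies both in CG42741 and in twi, the mesodermal bHLH gene, and mbc, a myoblast fusion gene, at 315. The mbc region stood at ranks 166, 2714 and 196 in replicates 1, 2 and 3, so that replicate 2 was far from the others, and a neighbouring summit lay 199 bp from it.

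Axon guidance genes had 12 of 26 hosts over 1.00 Mb of distal intronic sequence, among them the guidance receptor genes robo2 (best optimal rank 502) and fra (1508). Motoneuron transcription factors had 4 of 11, with pdm3, Lim3 and tup after grn. By contrast 0 of 27 genes of the Beat, Side, Dpr and DIP families of neuronal adhesion proteins hosted a region, over 1.04 Mb and a median of 27.6 kb per gene, and they held no carrier either. Chemoreceptor genes, 0 of 17, have short introns, with 0.026 Mb of such sequence in all. Hosts were 4 of 16 genes in the Hippo list, 3 of 14 for septate junctions and 3 of 19 for actin and microtubule regulators. Their medians of distal intronic sequence per gene were 5.42, 3.15 and 8.69 kb, against 39.5 kb in the ecdysone list. Among the actin and microtubule regulators 8 genes hosted a carrier.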

How the data were processed

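Peak lists of 3 biological replicates, a pooled list and an optimal list on dm6 were used, and the dm3 lists were not. By the deposited file descriptions, a replicate list rests on its own alignments plus a control, and the optimal list on a test of irreproducible discovery rate. Which aligner, caller and settings were used is not given in the sources used here. The control was not analysed here. The deposited signal value has no stated scale and is set per list, so it was used only within a list. The deposited −log10 q-value is capped in each list (4.12, 3.64 and 4.16 in replicates 1, 2 and 3, 4.21 pooled) and ranks nothing among the optimal peaks. Each replicate and pooled list holds 30000 peaks, and the optimal list is the 6580 strongest of the pooled list, so replicate ranks and optimal signal rest on the same reads. The deposited offset placed each summit.

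Genes and exons were those of Ensembl release 115, transposable elements left out. Motifs were searched on both strands over 50 bases to each side of the summit. No sequence from arm 2R is shown. The other GATA core was searched in a window 1 base wider on each side, so that a hexamer crossed by the window edge was not counted. Replicate comparisons used the two-sided exact sign-flip permutation test. Its p-value rests only on the paired differences of these 3 replicates, and is 0.25 whenever all 3 have the same sign, whatever their spread. Nothing was tested over peaks or genes. Wilson intervals cover counting error only. Named genes are the hosts of the 25 strongest regions, the 8 genes with the most regions and, of each of 19 lists, up to 4 genes with the strongest regions and up to 2 with none, not all printed. The result of 1 list is not reported here. Genes of the regions with neither feature and of the edges were added after their values were seen. The regions, motifs and lists were chosen with earlier results of these data known. Python 3.11.15, numpy 2.4.6 and pandas 2.3.3 were used, and the scripts were tested on simulated data.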

Additional observations from a re-analysis of the deposited data

How the results depend on the processing

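The number and share of distal intronic summits without the hexamer depended on how the hexamer was searched. The share was 67.4% with 25 bp searched to each side, 31.3% (703 regions) with 100 bp to each side, 20.1% (451) over the whole peak interval and 18.8% (423) when any GATA counted, and 50.2% beyond 2000 bp from a 5' end. Among optimal peaks above the median signal it was 43.2% (473). The share found in all replicates was 33.1% among 0.5 times as many strongest peaks, 94.0% among 2 times as many, 40.5% at a reciprocal overlap of at least 50%, 52.8% with summits within 100 bp and 61.2% for regions with no hexamer in the interval. It was 97.0% above the median signal and 62.0% with summits near a stronger one left out, and 70.3 to 78.7% with each replicate left out in turn. The difference in share found between regions without and with the hexamer turned to 0.190 percentage points above the median signal. The share with a hexamer nearby was 77.0% above the median signal and 57.8% for hexamers over 100 and up to 250 bp away, and the share with a hexamer at a replicate's own summit was 10.6% with summits within 100 bp. The excess of the Mad element at the replicates' own summits turned to -0.548 percentage points with 100 bp searched to each side, in the 703 regions without a hexamer there. The causes of these changes beyond their construction were not tested. Of 165 values under alternatives, 27 moved by more than the spread or count limit used and 2 reversed. The other 136 stayed within that limit or, for differences over the replicates, kept their direction. A kept direction does not mean that the size held, as the values in the text show. The alternatives with repeat-masked windows or summits near a stronger one left out, and the motif shares for summits within 100 bp, were chosen after seeing the data. The lists hold no read counts, and only 3 replicates limit every test.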
